A study of Homo sapiens with 18 samples.

Results

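The loci described here are 8 genes that serve as standard test or termination model loci in hybrid mapping: ACTB, ACTG1, GAPDH, CALM3, TFPT, BTBD19, APOE and SNRPN. They were taken by name from the 20163 protein-coding genes of the GENCODE annotation on GRCh37 (hg19), and each locus is the annotated gene plus 5 kb on either side. DNA-RNA hybrids had been mapped by DRIP-seq, in which genomic DNA cut with restriction enzymes is immunoprecipitated with the S9.6 antibody and sequenced. The cells were HCT116, a human colorectal carcinoma line, either untreated (NT) or exposed to 10 μM camptothecin (CPT) for 5 or 60 min, and no group carried any other treatment or allele. Each of the 3 conditions had 2 biological replicates, and each replicate had a DRIP library, a DRIP library in which the DNA had first been treated with RNase H, and an input. Treated cells were detached, washed and pelleted before lysis, so some time lay between exposure and recovery of hybrids. The values are the peaks called in the 6 DRIP and 6 RNase H libraries, which carry no read counts.

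An R loop forms when nascent RNA pairs with the template strand behind RNA polymerase and the other DNA strand is left single. Hybrids are favoured where the displaced strand is rich in G, and they are found at promoters with CpG islands and beyond polyadenylation sites, where ACTB has long been a model of termination. S9.6 binds DNA-RNA hybrids, RNase H degrades their RNA strand, and CPT traps topoisomerase I on DNA.

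Because the DNA was cut by restriction enzymes before immunoprecipitation, the stretches of GRCh37 at which peaks of these loci stopped or were highest are shown first, all on the plus strand, with the recognition sequence in capitals. The enzymes were HindIII (AAGCTT), EcoRI (GAATTC), XbaI (TCTAGA), SspI (AATATT) and BsrGI (TGTACA), each of which reads the same on both strands. Protein-coding gene windows held a median of 15.1 such sites per 10 kb. The first 3 stretches carried the summit of the strongest DRIP peak in 5, 6 and 4 of the 6 DRIP lists, and the last 3 an edge of a DRIP peak in 6, 6 and 5.
BTBD19 summit, HindIII, chr1:45275496-45275525: aggagccaaaagAAGCTTccctgcccccaa
ACTG1 summit, HindIII, chr17:79481498-79481527: tggtctcctccgAAGCTTctttgtctagga
TFPT summit, XbaI, chr19:54610505-54610534: caggcctgggaaTCTAGAaaatcccatcag
BTBD19 5′ edge, HindIII, chr1:45264661-45264690: aatgagggctgcAAGCTTgattagttttat
GAPDH 3′ edge, SspI, chr12:6648647-6648676: ttcaaactagtgAATATTaggaagtgcttg
GAPDH 5′ edge, XbaI, chr12:6641566-6641595: gagaaaacctgcTCTAGAccaagggttgct

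A further set shows the coding strand after the start of 3 of the loci, chosen for their contrast in hybrid signal. Each is the stretch of 100 bases, within 2000 bases after the annotated start, with the largest excess of G over C. All 3 lie outside annotated exons, and runs of at least 3 G are in capitals. Among stretches of 100 bases after the starts of all protein-coding genes, not chosen for G content, 75.1% held at least 1 such run on the coding strand, 10% at least 5 and 1.4% at least 8. Against the same choice of stretch in every protein-coding gene, the excess of G over C was 50 bases at CALM3 (98.4th percentile), 45 at SNRPN (95.2nd) and 23 at BTBD19 (19.5th), with a median of 29.
CALM3, chr19:47105645-47105744, plus strand: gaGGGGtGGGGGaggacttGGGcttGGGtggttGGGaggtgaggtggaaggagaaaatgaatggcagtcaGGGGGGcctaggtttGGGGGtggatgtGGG
BTBD19, chr1:45274704-45274803, plus strand: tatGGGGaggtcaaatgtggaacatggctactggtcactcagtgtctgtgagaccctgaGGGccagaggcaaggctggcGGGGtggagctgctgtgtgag
SNRPN, chr15:25200803-25200902, plus strand: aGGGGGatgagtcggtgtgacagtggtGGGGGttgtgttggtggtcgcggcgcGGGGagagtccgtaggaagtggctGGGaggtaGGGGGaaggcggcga

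The stretch of CALM3 held 8 G runs, against 5 in SNRPN and 3 in BTBD19. That of BTBD19 lay under peaks in all 6 DRIP lists, that of CALM3 in 1 list, and that of SNRPN in 0. These 3 were picked to show loci that differ in cover, so they carry no relation between G content and cover over the 8 loci.

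The DRIP lists held 30314 to 72879 peaks and the RNase H lists 473 to 67188, and in each condition replicate 2 had the longer list of both kinds. DRIP peaks covered 31.0 and 59.7 Mb in NT (replicates 1 and 2) and 25.0 and 47.0 Mb at 5 min. At 60 min they covered 34.5 and 82.2 Mb. Total DRIP cover was thus lowest at 5 min and highest at 60 min in each replicate. Read depth is not recorded in the lists, so a locus without a peak is below the calling threshold of that library and not shown to lack hybrids. Replicate 2 of the RNase H libraries stood apart, holding 50353 peaks at 5 min and 67188 at 60 min, where replicate 1 held 3439 and 5392. Results that rest on RNase H are therefore given by replicate.

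Of the 8 loci, 7 had DRIP peaks in both replicates of NT, of 5 min CPT and of 60 min CPT. SNRPN had none in any of the 6 DRIP lists. Over all protein-coding genes 44.8% of windows had a peak in both NT lists, 48.8% in both 5 min lists and 58.8% in both 60 min lists, and 33.0% had one in all 6 DRIP lists. Within 1 kb of the annotated start, 7 loci had DRIP cover in both NT replicates, where 16.0% of all genes had. After 5 min of CPT it was 6 loci, all but CALM3 and SNRPN, against 15.5% of genes, and after 60 min again 7 loci against 26.5%. Within 1 kb of the 3′ end, 4 loci (ACTB, ACTG1, TFPT and GAPDH) were covered in both NT replicates, beside 14.2% of all genes. The same loci were covered there in both 5 min lists, beside 7.46% of genes, and CALM3 joined them at 60 min, to 5 loci beside 14.4%. Most of these genes are used as test loci because hybrids are often found at them, and SNRPN for low signal, so these shares describe the choice of loci.

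**Figure D1:**
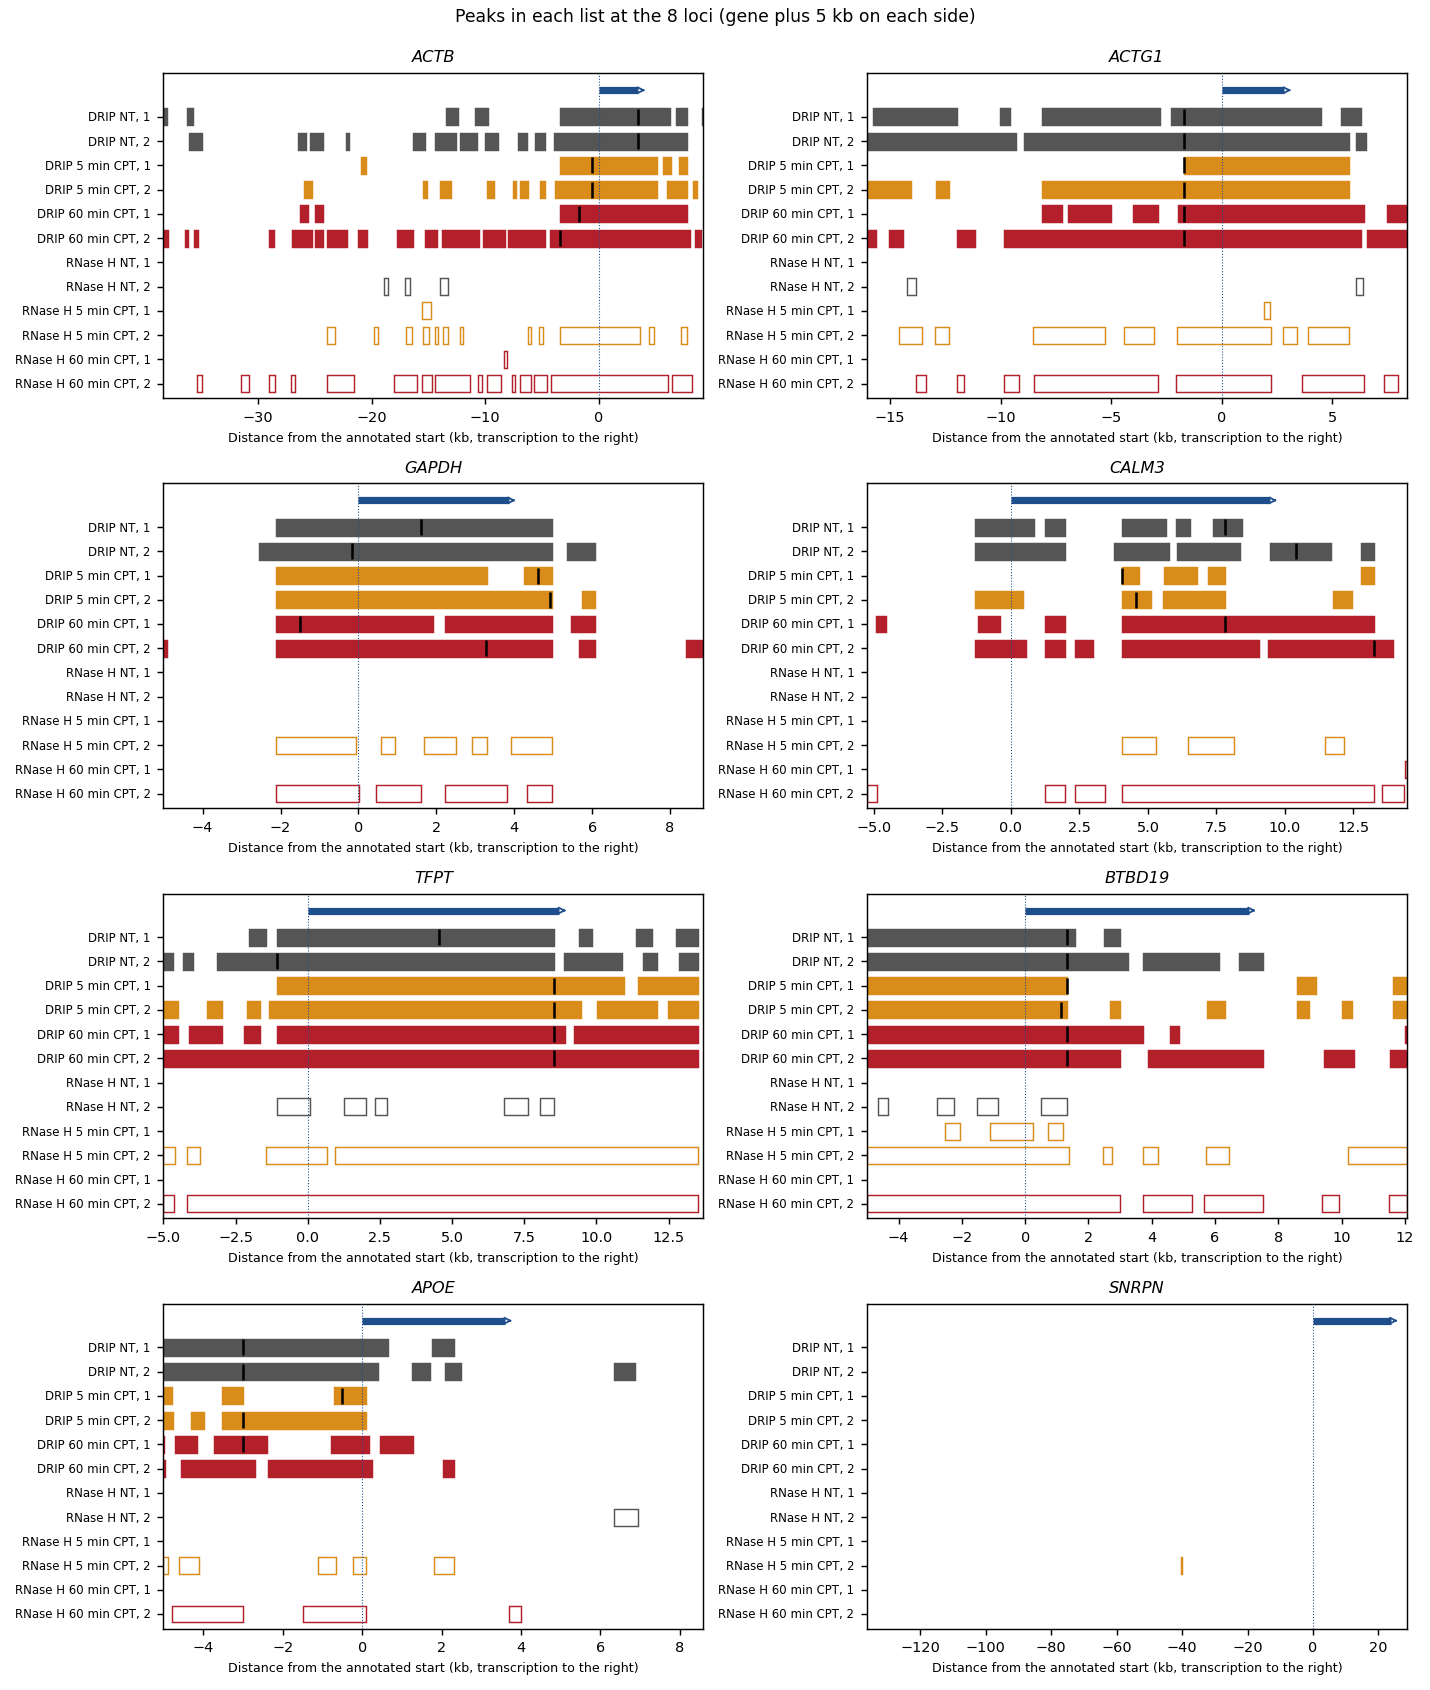
Peaks of the 12 lists at each of the 8 loci, with distance from the annotated start in kb on the x axis (transcription to the right) and 1 row per list. Filled bars are DRIP peaks, open bars RNase H peaks, colours the 3 conditions, black ticks the summit of the strongest DRIP peak of a list where it lies in the window, and the blue bar the canonical transcript. ACTB, ACTG1 and GAPDH were covered from before the start to beyond the 3′ end in most DRIP lists, BTBD19 from the upstream edge of the window into the gene, APOE mainly upstream of the start, and SNRPN in 0 of 6.

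ACTB had the best median rank of the 8 loci by fold enrichment, the measure of rank used here. The gene, which encodes β-actin of the cytoskeleton, lies on the minus strand of chromosome 7, with a canonical transcript of 3454 bp from chr7:5566779-5570232. All 6 DRIP lists covered one uninterrupted block of 8574 bp, chr7:5565100-5573673, which ran from -3441 bp relative to the start to 1679 bp past the 3′ end, so the entire transcript lay under a peak in each list. The peak over this block was 9685 and 11762 bp wide in the NT lists, 8574 and 8993 bp after 5 min of CPT, and 11211 and 12255 bp after 60 min. It was narrowest at both replicates of 5 min, and the groups of 5 min and NT did not overlap in this width. The share of all peaks with this order was not computed, and total DRIP cover was also lowest at 5 min.

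By fold enrichment over input, the ACTB peak ranked 152 and 60 in the NT lists, 17 and 19 in the 5 min lists and 76 and 53 in the 60 min lists of replicates 1 and 2. It was thus within the top 0.501% of every DRIP list, and the 5 min lists gave it its best ranks. Its summit differed between NT and CPT. In both NT lists it lay 3406 bp after the start, which is 47 bp before the 3′ end. After 5 min of CPT the summits lay at -621 and -613 bp relative to the start, and after 60 min at -1742 and -3440 bp. In all 4 CPT lists the summit was therefore upstream of the canonical start, and in both NT lists at its 3′ end. Of the 7 loci, 1 (ACTB) had a summit further 3′ in both NT lists than in all 4 CPT lists, an arrangement found in 16.7% of the 6651 genes with a peak in all 6 DRIP lists. This comparison was chosen after the summits had been seen. The NT summits fell on a BsrGI site, and of the CPT summits only that of 60 min replicate 2 fell on a site, of EcoRI.

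Across its whole window, ACTB had 13779 and 22440 bp under DRIP peaks in NT, 10453 and 15359 bp after 5 min of CPT, and 12626 and 30335 bp after 60 min. The window is long, 47494 bp, because an annotated isoform starts far upstream of the canonical one, and the cover that varied was mostly there. Upstream of the canonical start 57.2% of the window was covered in replicate 2 at 60 min and 12.7% in replicate 1. The 5 min list was below the NT list of its replicate in both replicates, by differences of -3326 and -7081 bp, but the 2 conditions overlapped. The mean was 18109.5 ± 6124 bp (SD, n = 2) in NT, 12906 ± 3469 bp at 5 min and 21480.5 ± 12522 bp at 60 min, where the difference from NT was -1153 and 7895 bp by replicate, with two-sided exact permutation p of 0.667 and 1, where 2 lists against 2 cannot give less than 0.333.

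ACTG1, which encodes γ-actin, lies on the minus strand of chromosome 17 with a canonical transcript of 2829 bp. All 6 DRIP lists covered chr17:79475313-79481514, 6202 bp from -1689 bp relative to the start to 1684 bp past the 3′ end. The outline was thus like that of ACTB, with the transcript and both of its flanks covered in every list. The strongest peak had its summit between -1689 and -1686 bp from the start in all 6 lists, on the HindIII site printed above. Its rank was 883 and 77 in NT, 31 and 24 after 5 min of CPT, and 434 and 428 after 60 min. As at ACTB, both 5 min lists gave a better rank by fold enrichment than any NT or 60 min list. By −log10 p, the ACTG1 percentile rounded to 100 in NT replicate 2, both 5 min lists and 60 min replicate 2. That of ACTB rounded to 99.9 in both 5 min lists and in 60 min replicate 2. The share of all genes with this order of ranks was not computed.

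Away from the core, the ACTG1 window was covered unevenly upstream of the start. NT replicate 2 had a peak of 32431 bp that ran from -41741 to -9311 bp relative to the start and reached over FSCN2, which encodes an actin-bundling fascin. In the whole window 17318 and 21917 bp were under DRIP peaks in NT, 7466 and 16523 bp after 5 min, and 13301 and 19772 bp after 60 min. Both 5 min lists lay below both NT lists, and the 60 min lists overlapped them. The mean difference from NT was -7623 bp at 5 min (exact permutation p = 0.333, the smallest possible) and -3081 bp at 60 min (exact permutation p = 0.667). Upstream of the start, cover in the 5 min lists was 10.5% in replicate 1 and 67% in replicate 2, against 74.0% and 97.6% in NT.

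GAPDH, the glycolytic glyceraldehyde-3-phosphate dehydrogenase gene on chromosome 12, had the least variable cover of the 7 loci with peaks, at 53.3 ± 5.5% (SD, n = 6) of its window. DRIP peaks covered 7083 and 8261 bp of its 13863 bp window in NT, 6133 and 7424 bp after 5 min of CPT, and 7381 and 8039 bp after 60 min. The 3 conditions overlapped throughout, and the mean differences from NT were -893.5 bp at 5 min (-950 and -837 bp by replicate, exact permutation p = 0.667) and 38 bp at 60 min (exact permutation p = 1). A single peak of exactly 7083 bp, from -2104 bp relative to the start to 4978 bp after it and so past the 3′ end, was called in NT replicate 1 and in replicate 2 at 5 and at 60 min. Its ends lie at the XbaI and SspI sites printed above.

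The GAPDH block was broken in the other CPT lists. In 5 min replicate 1 it was 2 peaks of 5394 and 739 bp, with a gap in the 3′ end region, and in 60 min replicate 1 it was 2 peaks of 4017 and 2745 bp. The strongest peak ranked 256 and 65 in NT, 3460 and 147 after 5 min, and 1315 and 511 after 60 min. Every CPT list of a replicate gave a lower rank than its NT list, and the gap was wider in replicate 1. Of the bases covered in either replicate, 85.7% were covered in both in NT, the largest share of the 7 loci, 82.6% at 5 min and 86.8% at 60 min.

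CALM3, one of the calmodulin genes, lies on the plus strand of chromosome 19 and is 9709 bp long. Its cover was broken and of lower rank. No list covered the gene in one piece, and the bases shared by all 6 DRIP lists came to 1592 bp in 4 pieces, all between 4059 and 7803 bp after the start. DRIP peaks covered 6083 and 10309 bp of the window in NT, 2925 and 5751 bp after 5 min of CPT, and 11081 and 12856 bp after 60 min. The 5 min lists were both below, and the 60 min lists both above, the NT lists. The mean differences from NT were -3858 bp and 3772.5 bp, each with an exact permutation p of 0.333, the smallest possible with 2 lists against 2. Without the DRIP peaks that overlapped an RNase H peak, the CALM3 difference at 60 min turned to -1714.5 bp.

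The CALM3 start and 3′ end behaved differently. Within 1 kb of the start, cover was 92.4% and 100% in NT, 0% and 71.7% after 5 min, and 29.7% and 77.6% after 60 min. All 4 CPT lists were below both NT lists there. Within 1 kb of the 3′ end cover was 0% and 50.6% in NT, 0% in both 5 min lists, and 100% and 82.9% after 60 min. The 60 min lists were thus above all other DRIP lists there. The share of all genes with either order, at the start or at the 3′ end, was not computed. The RNase H lists of 60 min covered 0% of this 3′ end stretch in replicate 1 and 100% in replicate 2. At 60 min replicate 1 had 1 peak of 9196 bp from 4059 to 13254 bp after the start, where both NT lists had separate peaks. The strongest peak of the window ranked between 2281 and 7300 over the 6 DRIP lists, the top 3.13% to 15.2% of a list, and it was in the top 1% in 0 of 6.

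**Figure D2:**
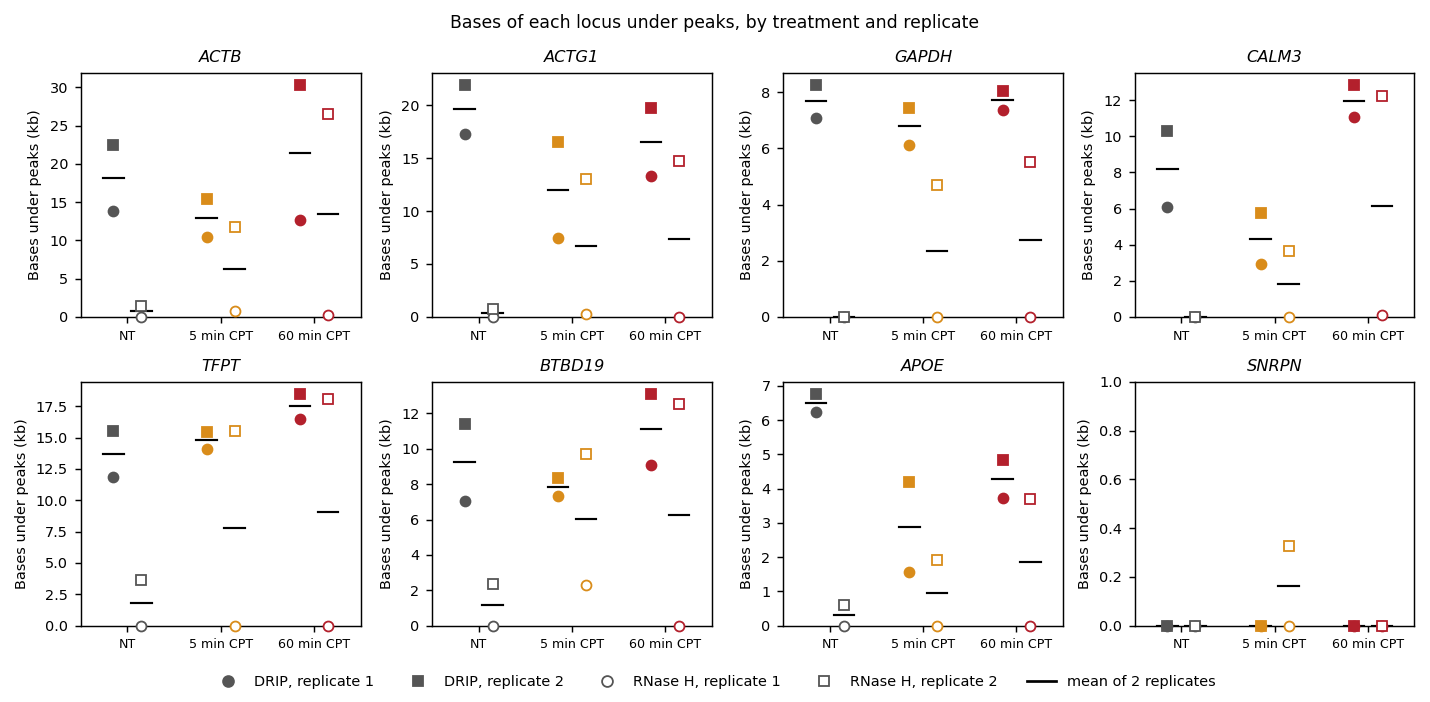
Bases of each window under peaks, in kb on the y axis from 0, by condition on the x axis. Circles are replicate 1, squares replicate 2, filled symbols DRIP and open symbols RNase H, and bars the mean of 2 replicates. In DRIP, ACTG1, CALM3 and APOE have both 5 min points below both NT points, and CALM3 and TFPT both 60 min points above them, while open squares after CPT approach the filled ones and open circles stay near 0.

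TFPT, the TCF3 fusion partner gene and a subunit of the INO80 chromatin remodeller, lies on the minus strand of chromosome 19 and overlaps the start of PRPF31, a splicing factor gene transcribed the other way. It was the most completely covered of the 8 loci, with 81.9 ± 11.9% (SD, n = 6) of its 18711 bp window under DRIP peaks, at the 99.8th percentile of all protein-coding windows. All 6 lists covered chr19:54610518-54620114, a block of 9597 bp that starts at -1077 bp and ends 191 bp short of its 3′ end. In NT replicate 1 the peak was exactly this block, with both ends within 10 bp of an XbaI site. The peak over it was 9597 and 11650 bp wide in NT, 12051 and 10814 bp after 5 min, and 10004 and 18616 bp after 60 min.

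The bases of the TFPT window under DRIP peaks were 11899 and 15518 bp in NT, 14135 and 15413 bp after 5 min, and 16510 and 18517 bp after 60 min. The 60 min lists were both above the NT lists, with a mean difference of 3805 bp (exact permutation p = 0.333) that came to 371.5 bp without the DRIP peaks that overlapped RNase H peaks and to 804.5 bp with flanks of 2 kb, and the 5 min lists overlapped them, with 1065.5 bp (exact permutation p = 1), the replicates giving 2236 and -105 bp. In 60 min replicate 2 the locus was a single peak with 99% of the window. The strongest peak was in the top 0.684% of every DRIP list. Its summit was at 4554 and -1076 bp from the start in NT and at 8517 or 8518 bp in all 4 CPT lists, on the XbaI site printed above. TFPT was the 1 of the 7 loci with a summit further 5′ in both NT lists than in all 4 CPT lists, as had 7.76% of the genes with a peak in all 6 lists, a comparison also chosen after the summits had been seen.

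Over the 6 DRIP lists, 82.8% of NDUFA3, a complex I subunit gene whose 3′ end overlaps that of TFPT, was covered on average, and 52.7% of PRPF31. Peaks carry no strand, so hybrids of TFPT and of these neighbours cannot be told apart. The genes over 100 kb away whose percent of window covered was most like that of TFPT over the 6 lists were TRIP6, SLC39A4 and SRRT, at Euclidean distances of 15.8, 16.3 and 20.4 percentage points. In TRIP6 the cover was 56.3% and 87.8% in NT, 78.3% and 80.4% at 5 min, and 84.3% and 86.9% at 60 min.

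BTBD19, a gene with a BTB domain on chromosome 1, was covered on both sides of its start. All 6 DRIP lists covered the 5 kb before its start in full and the gene up to 1317 bp after the start, and nothing else in the window was covered in all 6. In both 5 min lists the peak was exactly 10839 bp, from -9521 to 1317 bp relative to the start, between the HindIII sites printed above. It was wider in NT (11099 and 12779 bp) and at 60 min (13252 and 12519 bp). The 5 min peaks were narrower than every NT and 60 min peak, which ran further into the gene. The share of all peaks with this order was not computed, and total DRIP cover was also lowest at 5 min.

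That peak took in all of PLK3, a polo-like kinase gene, and of DYNLT4, whose bodies were covered by 100% in each of the 6 lists. Hybrids of BTBD19, PLK3 and DYNLT4 can therefore not be told apart under this peak. The strongest peak ranked 308 and 135 in NT, 259 and 23 after 5 min, and 114 and 68 after 60 min, so each CPT list gave a better rank than the NT list of its replicate. In the RNase H lists of replicate 2 the strongest peak ranked 999 in NT, 55 at 5 min and 47 at 60 min, so it also ranked high after digestion there. In replicate 1 it ranked 418 at 5 min, and no RNase H peak was called in NT or at 60 min. In the window, 7073 and 11402 bp were covered in NT, 7340 and 8336 bp after 5 min, and 9084 and 13119 bp after 60 min. The conditions overlapped, with mean differences of -1399.5 bp at 5 min (267 and -3066 bp in replicates 1 and 2, exact permutation p = 1) and 1864 bp at 60 min (2011 and 1717 bp, exact permutation p = 0.667). Cover of the gene itself was 29.4% and 84.4% in NT, 18.7% and 31.4% at 5 min, and 56.8% and 87.7% at 60 min. The 60 min list was above the NT list, and the 5 min list below it, in each replicate.

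APOE, the apolipoprotein E gene of lipid transport, lies on the plus strand of chromosome 19 downstream of TOMM40, which encodes the mitochondrial import channel. Its cover lay mainly upstream of the start and was lower in all CPT lists. In both NT lists 1 peak covered the 5 kb before the start in full, 7834 bp wide in replicate 1 and 5747 bp in replicate 2. After 5 min of CPT the same stretch held 3 peaks in each list, of 545 to 793 bp in replicate 1 and 336 to 3627 bp in replicate 2, and cover of the upstream 5 kb was 29.2% and 82.0%. After 60 min it was 53.9% and 85.9%. Every CPT list was below both NT lists. The share of all genes with this order upstream of the start was not computed.

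Over the APOE window 6227 and 6771 bp were covered in NT, 1555 and 4199 bp after 5 min, and 3711 and 4820 bp after 60 min. The NT replicates differed by less than either CPT pair, at 6499 ± 385 bp (SD, n = 2) against 2877 ± 1870 bp and 4265.5 ± 784 bp. The mean differences from NT were -3622 bp and -2233.5 bp, with exact permutation p of 0.333 for each, the smallest possible. The strongest peak ranked 98 and 438 in NT, 2932 and 3432 after 5 min, and 7973 and 431 after 60 min. The rank of 431 belonged to a peak of 10224 bp that lay over TOMM40 and reached the APOE window with its last bases only. Its summit was at -15144 bp from the APOE start. Within 1 kb of the APOE 3′ end cover was 0% in all 6 DRIP lists. TOMM40 reaches into the upstream 5 kb and was covered over 79.8% of its body on average, so hybrids of the TOMM40 end and of the APOE promoter cannot be told apart.

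SNRPN, an imprinted gene of an snRNP protein that is often used as a locus of low hybrid signal, had 0 bp under DRIP peaks in each of the 6 lists, over a window of 165087 bp. Its overlapping gene SNURF had 0% cover as well. Windows without a peak in any DRIP list made up 17.3% of all protein-coding genes. Among the 4202 windows of 0.5 to 2 times its length they made up 5.69%. In the RNase H lists SNRPN had 1 peak, of 328 bp, at 5 min of CPT in replicate 2, at the 35.4th percentile of its list. The library that gave it had 50353 peaks, and no DRIP peak was called there.

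**Figure D3:**
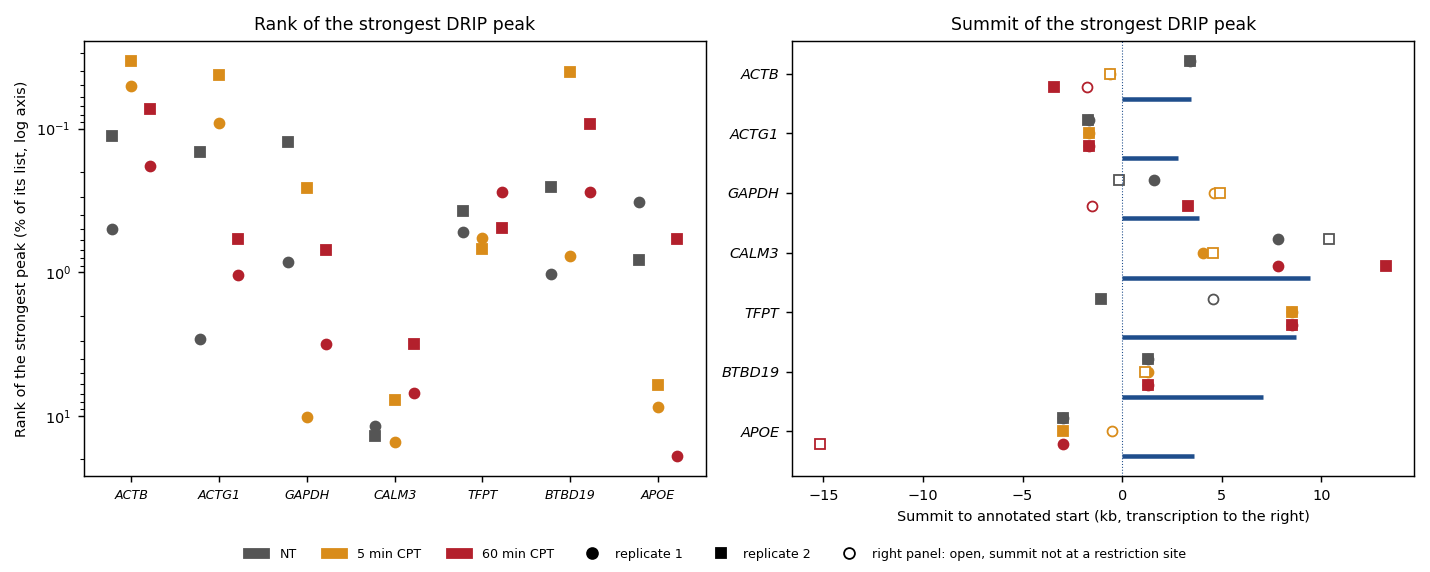
Strongest DRIP peak of each locus in each list (SNRPN had none). Left, its rank as a percentage of the length of its list, on an inverted log axis. Right, the distance of its summit from the annotated start in kb, with blue bars for the canonical transcripts and filled symbols for summits within 10 bp of a restriction site. Circles are replicate 1, squares replicate 2 and colours the conditions. ACTB and ACTG1 rank best at 5 min of CPT, APOE ranks below both NT lists in 3 of the 4 CPT lists, and summits lie between -1689 and -1686 bp at ACTG1 and between 1137 and 1316 bp at BTBD19.

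Covered bases after CPT were set against those of all genes. After 5 min, 3 of the 8 loci (ACTG1, CALM3 and APOE) had fewer covered bases in both lists than in both NT lists, where 14.8% of all genes did, and 0 had more, where 13.9% did. After 60 min, 2 loci (CALM3 and TFPT) had more, beside 24.4% of all genes, and 1 (APOE) had fewer, beside 6.62%. APOE was the one test locus with all 4 CPT lists below both NT lists, and ACTG1 was below the NT list of its own replicate at both times, with differences of -9852 and -5394 bp at 5 min and -4017 and -2145 bp at 60 min. For neither pattern was the share of all genes computed, so how common each is remains unknown. These counts rest on lists of unequal length and unequal total cover, which was lowest at 5 min and highest at 60 min in each replicate. The part of either in the counts was not tested. Without the DRIP peaks that overlapped an RNase H peak of their own pair the counts were different. They came to 6 loci with fewer bases at 5 min, and 0 with more and 3 with fewer at 60 min. The shares of all genes without these peaks were not computed. In each replicate the RNase H lists that set this removal were longer after CPT than in NT. Their part in these counts was not tested.

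RNase H digestion was compared within pairs, since each RNase H library came from a part of the digested DNA of a DRIP library. At ACTB the RNase H lists covered 0, 752 and 274 bp in replicate 1 for NT, 5 min and 60 min of CPT, and 1474, 11742 and 26536 bp in replicate 2. At TFPT the values were 0 bp in all 3 lists of replicate 1 and 3642, 15520 and 18075 bp in replicate 2. In replicate 1 little of either locus was called after digestion, whereas in replicate 2 after CPT the digested libraries covered nearly as much as the undigested ones.

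Over the 7 loci with DRIP peaks, the share of DRIP-covered bases also under an RNase H peak was 0% at every locus in replicate 1 in NT and at 60 min. At 5 min it was 0% at 5 of them, 3.74% at ACTG1 and 31.3% at BTBD19. In replicate 2 the share ranged from 0% to 23.5% in NT, with a median of 3.35%. It ranged from 25.9% to 91.2% after 5 min, with a median of 63.1%, and from 65.8% to 97.6% after 60 min, with a median of 75.1%. APOE had the lowest and TFPT the highest share at both CPT times. Within replicate 2 the order of the conditions was the same at 6 of the 7 loci, with NT lowest and 60 min highest, the exception being ACTG1 with 73.2% at 5 min and 71.6% at 60 min. The RNase H lists of replicate 2 also grew in that order, and their part in these shares was not tested.

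**Figure D4:**
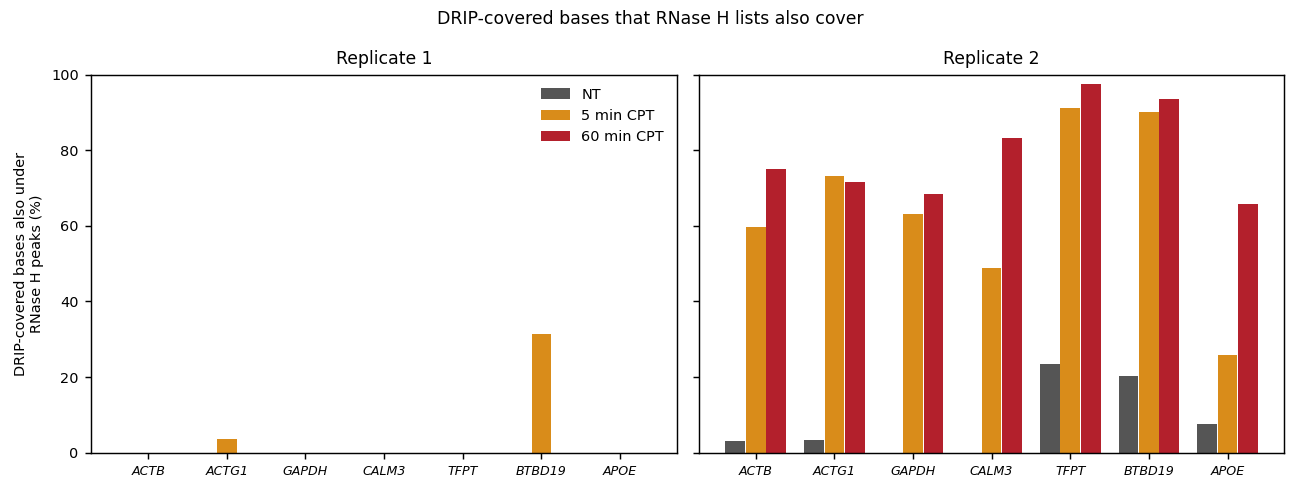
Share of the DRIP-covered bases of each locus, in percent on the y axis, that also lay under an RNase H peak of the same condition and replicate, by locus on the x axis. Bars are single library pairs, replicate 1 left and replicate 2 right. All bars of replicate 1 are at 0% except those of ACTG1 (3.74%) and BTBD19 (31.3%) at 5 min, while in replicate 2 the CPT bars run from 25.9% to 97.6%.

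DRIP cover exceeded RNase H cover in 6 of 6 pairs at ACTB, ACTG1, CALM3, APOE and GAPDH, and in 5 of 6 at TFPT and BTBD19. The mean difference was 10702 ± 6579 bp (SD over 6 pairs) at ACTB, 11241 ± 7155 bp at ACTG1, 5509 ± 4370 bp at CALM3, 3514 ± 2257 bp at APOE and 5687 ± 2463 bp at GAPDH. An exact paired permutation test over the 6 pairs, two-sided, gave p = 0.0312 for each of these 5, the smallest it can give. The same exact permutation test gave p = 0.0625 at TFPT and p = 0.0938 at BTBD19, whose exceptions were the 5 min pairs of replicate 2, at -107 and -1382 bp. The 5 loci past an unadjusted 0.05 compare with 29.1% of the 17287 gene windows with a peak in any list. Only windows with a DRIP peak in all 6 lists can pass it. These numbered 6651, and 5034 of them passed. Of the loci, 7 were such windows and 5 of the 7 passed, so the loci did not stand out among them. After Benjamini-Hochberg adjustment over all 17287 windows, 0 of the loci and 0% of the windows were below 0.05. The adjusted exact permutation p was 0.107 for the 5 loci, 0.14 for TFPT and 0.203 for BTBD19.

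Many peaks of these loci ended or were highest at restriction sites. Of the 42 strongest DRIP peaks, 29 (69.0%) had their summit within 10 bp of a recognition site. They numbered 6 of 6 at ACTG1, 5 of 6 at TFPT and BTBD19, 4 of 6 at CALM3 and APOE, 3 of 6 at ACTB and 2 of 6 at GAPDH. The 29 count some sites repeatedly, such as the same HindIII site in 6 lists at ACTG1 and another in 5 lists at BTBD19. They are thus not 29 separate cases. Over all peaks of the DRIP lists 19.3% to 34.5% of summits lay at a site, and among the top 1% of each list 37.3% to 64.5%. Those shares are of distinct peaks within 1 list. Edges lay at a site for 71.4% of the DRIP peak ends at GAPDH, 47.6% at BTBD19, 44.4% at CALM3, 38% at TFPT, 27.3% at ACTG1, 23.8% at APOE and 22% at ACTB. The share of edges at a site over all DRIP peaks was not computed, so these shares stand without a background.

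The fragment that held the start was 10835 bp long at BTBD19, 9593 bp at TFPT, 6846 bp at ACTB, 3930 bp at ACTG1, 3701 bp at GAPDH, 3082 bp at APOE and 2100 bp at CALM3, and 829 bp at SNRPN. The median over all protein-coding genes was 1912 bp, so the 7 loci with DRIP peaks were above it and SNRPN below it, at the 13.5th percentile. BTBD19 and TFPT were at the 99.5th and 99.3rd percentiles. With 14.8 sites per 10 kb the SNRPN window as a whole was near the median. Whether fragment length bears on the peaks called at these loci was not tested.

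GC skew, (G-C)/(G+C) on the coding strand, was measured in the reference over 500 bases after each start. It was 0.25 at SNRPN, 0.24 at APOE, 0.22 at TFPT, 0.20 at CALM3, 0.19 at GAPDH, 0.08 at ACTB, 0.06 at ACTG1 and -0.22 at BTBD19, with a median of 0.05 over all protein-coding genes. The locus with no DRIP peak thus had the highest skew of the 8, at the 94.2nd percentile of all genes, and at the 99.4th over 1000 bases. BTBD19, covered within 1 kb on both sides of its start in all 6 lists, was at the 2.7th percentile. ACTB and ACTG1, covered over the entire transcript in all 6 lists, were near the middle, at the 58.3rd and 53.3rd percentiles.

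**Figure D5:**
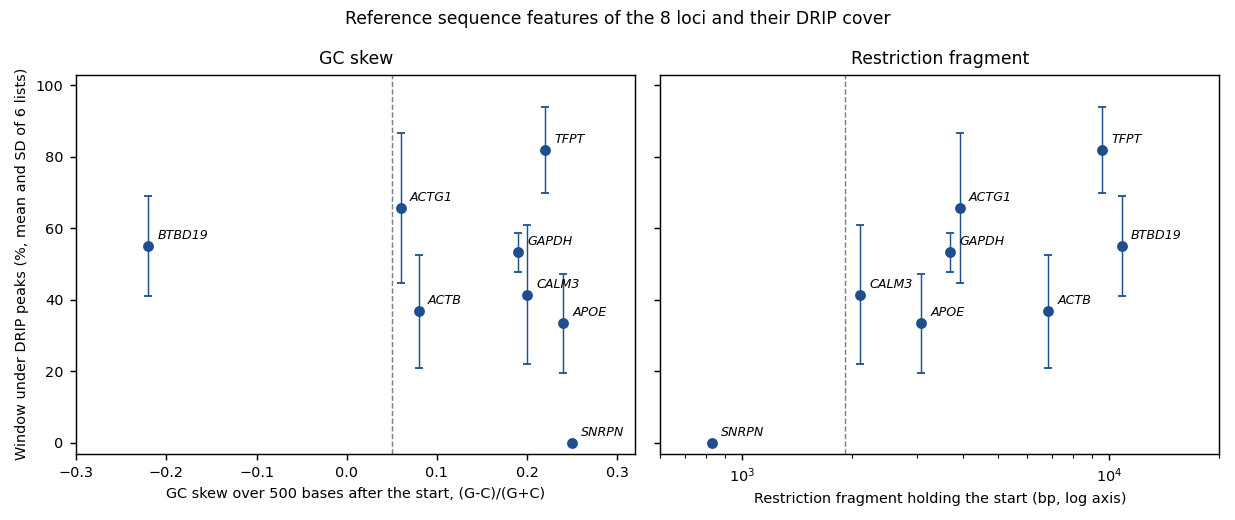
Percent of each window under DRIP peaks on the y axis (mean and SD of 6 lists) against GC skew over 500 bases after the start (left) and against the length in bp of the restriction fragment that holds the start (right, log axis). Dashed lines are the medians of all protein-coding genes. SNRPN, at 0% cover, has the highest skew (0.25) and the shortest fragment (829 bp).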

How the data were processed

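Samples were grouped by the assay, treatment and replicate in the labels. For each library, the authors had trimmed adaptors (Cutadapt), aligned reads to hg19 (BWA), filtered blacklisted regions and duplicates (SAMtools, Picard) and run MACS2 against input, with replicates kept apart. Versions of these tools and the peak threshold are not stated for these lists in the sources used here. The lowest −log10 q of a list was between 1.301 and 1.311 over the 12 lists. The deposited lists give each peak's position, its fold enrichment (the ratio of the summit to input), −log10 p, −log10 q and a score. The deposited fold served only to rank peaks within a list, the deposited −log10 p and −log10 q only for alternatives, and the deposited score for nothing. The lists hold no counts and no spike-in scaling, so the authors' limma comparison of read counts was not repeated.

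Bases under peaks were counted in each window of GENCODE release 44 on GRCh37, and distances were taken from the canonical transcript. All peaks lie within GRCh37 chromosome lengths. CPT and NT were compared by exact permutation tests over lists, and DRIP and RNase H by exact sign flips over 6 pairs (parts of the same DNA) in all windows with a peak, with Benjamini-Hochberg adjustment. With 2 replicates a condition, p measures the spread between these lists only. The named genes were the 8 loci, neighbours under peaks, and the 3 genes most like the most covered locus, and a comparison set of other DRIP-qPCR genes is not reported here. Members and lists were chosen with earlier results of these data known. Alternatives were a cut on −log10 q at 3, equal list lengths, flanks of 2 or 10 kb, at least 50% of a peak in the window, removal of DRIP peaks that overlap RNase H peaks, the replicate pairing, ranks by −log10 p, 1000 bases for skew, and each replicate left out. Window counts were tested on simulated data, with 0 of 2000 windows wrong. Python 3.11.15, NumPy 2.4.6, pandas 2.3.3, SciPy 1.17.1 and Matplotlib 3.10.9 were used.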

Additional observations from a re-analysis of the deposited data

Results flagged for a closer look

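At SNRPN the difference between DRIP and RNase H covered bases was -328 bp in the 5 min pair of replicate 2 and 0 bp in the other 5 pairs. It is the RNase H peak of 328 bp described above, which was below the middle of its list in rank. With 5 pairs tied at 0, any other value in the remaining pair would have been picked out, so its being listed here says nothing of its size.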

How the results depend on the processing

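With 2 lists a condition the exact permutation test used here cannot pass 0.05 for CPT, so these alternatives bear on values and directions only, and the causes of the shifts below were not tested. Of the values computed under alternatives, 17 differences changed sign, 18 other values moved, and 244 kept their sign or stayed near their value. Some of the 244 could not come out otherwise. Pairing or unpairing the lists leaves a mean difference as it is, and SNRPN had 0 bp in every DRIP list. The mean SNRPN difference between DRIP and RNase H, -54.7 bp, came to 0 bp under some alternatives and was also counted as kept. A kept sign did not mean a kept size: the TFPT difference at 60 min was 371.5 bp without the DRIP peaks that overlap RNase H peaks and 804.5 bp with flanks of 2 kb, that of CALM3 at 5 min was -1708 bp with −log10 q of at least 3, and loci with peaks in both replicates numbered 5 at each CPT time without the overlapped peaks. By −log10 p the median percentile of the strongest peak was 100 at ACTG1 and 99.8 at ACTB. At 5 min, the TFPT difference from NT was -3025.5 bp with flanks of 10 kb and -334 bp without the DRIP peaks that overlap RNase H peaks, and -105 to 2236 bp with 1 replicate left out. That of BTBD19 was 673.5 bp with flanks of 10 kb, and -3066 to 267 bp with 1 replicate left out. Loci with fewer covered bases at 5 min numbered 6 without the overlapped peaks. With 1 replicate left out, 1 list is set against 1, so any locus with a difference counts as fewer or more. The counts were then 5 to 7 with fewer and 0 to 2 with more. They cannot be compared with counts from 2 lists against 2.

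At 60 min, removal of the overlapped peaks gave -9529 bp at ACTB, -1714.5 bp at CALM3, -566.5 bp at BTBD19 and -3503.5 bp at GAPDH. With at least 50% of a peak in the window ACTG1 came to 288 bp and GAPDH to -12.5 bp. GAPDH was -130.5 bp with −log10 q of at least 3, -382 bp with lists of equal length, -126.5 bp with flanks of 2 kb and -159 bp with 10 kb. With 1 replicate left out ACTB ranged from -1153 to 7895 bp and GAPDH from -222 to 298 bp. Loci with more covered bases at 60 min numbered 1 with the −log10 q cut, 0 with either other flank, 0 without the overlapped peaks, and 4 with either replicate left out. Those with fewer numbered 0 with flanks of 10 kb and 3 without the overlapped peaks. With either replicate left out, 4 had more and 3 fewer, again from 1 list against 1. The shares of all genes under these alternatives were not computed. APOE kept its lower value at both times under each alternative.

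With the replicate block, which pairs lists by number, the differences were the same (-7623 bp for ACTG1 at 5 min) and the smallest exact permutation p was 0.5. Lists of one number deviated together across genes (r of 0.53 to 0.66 between conditions, as a description). For DRIP against RNase H, 0 windows passed the adjusted level under each alternative, and with 1 replicate left out the 3 pairs cannot reach it. Skew over 1000 bases was 0.33 at CALM3, -0.06 at BTBD19 and 0.37 at SNRPN.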
